A study of Mus musculus with 10 samples.

Results

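The aminoacyl-tRNA synthetases were examined in mouse morulae grown from zygotes injected with an antisense oligonucleotide (ASO). Members were taken by gene symbol: every gene named for a single amino acid letter followed by ars, with or without a closing digit, together with Eprs, Ears2, Farsa, Farsb, Fars2 and the scaffold genes Aimp1 and Aimp2. The symbols gave 39 of the 24411 genes listed, of which 20 encode cytosolic enzymes or enzyme subunits, 17 encode mitochondrial enzymes (symbols ending in 2) and 2 encode scaffolds. In the Mettl3-ASO group, 5 libraries were made from embryos that received an oligonucleotide against Mettl3, the gene of the catalytic subunit of the RNA N6-methyladenosine writer. The ASO-Control group held 5 libraries from embryos that received a non-targeting oligonucleotide. In both groups oocytes of superovulated females were fertilized in vitro and injected at the one-cell stage, 3 to 6 h after insemination, and each library pooled 10 morulae collected at 72 h. The strain is given as ICR for the 4 libraries numbered 1 and 2, which carry no batch tag and are called untagged here. The 6 libraries numbered 3 to 5 are tagged batch 2, with no strain stated in the sources used here. Where the oligonucleotide binds, its concentration and whether libraries came from separate fertilizations are likewise not given. The p-values therefore describe only the variation among these 10 libraries, part of which may be technical.

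Aminoacyl-tRNA synthetases join each amino acid to its tRNA, the step at which the genetic code is read. The cytosol and the mitochondrion use separate nuclear-encoded enzymes for most amino acids, and the mitochondrial set serves only the few proteins encoded in mitochondrial DNA. Glycine and lysine are exceptions: Gars and Kars each supply both compartments. Glutamine has no mitochondrial enzyme of its own, since there a tRNA first loaded with glutamate by Ears2 is converted by an amidotransferase. In the cytosol of mammals several synthetases, among them the fused glutamate and proline enzyme Eprs, are held with Aimp1, Aimp2 and a further auxiliary protein in the multisynthetase complex, while the others act outside it.

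Total expected counts ranged from 9905830 to 13530284 in the 4 untagged libraries and from 21412857 to 32327283 in the 6 libraries of batch 2. The targeted gene checked the labels: Mettl3 stood at 0 to 0.04 FPKM (fragments per length of transcript and depth) in the Mettl3-ASO libraries and at 6.58 to 12.68 FPKM in the ASO-Control libraries. Of 12 embryo markers, 11 had a mean of at least 1 FPKM in both groups. The markers summed to 25819 to 45592 TPM in Mettl3-ASO and 18370 to 27110 TPM in ASO-Control. Most of that sum was Dppa3 alone, at 22837 to 44271 FPKM in Mettl3-ASO and 15998 to 25892 FPKM in ASO-Control. No other marker exceeded 476.67 FPKM in any library. Of the 11 with a mean of at least 1 FPKM, 6 fell and 3 rose by edgeR, where 24.0% of all tested genes fell and 25.4% rose. The falls were in the epithelial and trophectoderm genes Epcam (log2 fold change −3.56), Krt18 (−2.71), Gata3 (−2.19), Krt8 (−2.12) and Cdx2 (−1.15), and in the pluripotency gene Pou5f1 (−0.64). The epithelial gene Cdh1 (−0.32, edgeR adjusted p = 0.132) and the trophectoderm gene Tead4 (0.17, adjusted p = 0.274) did not pass the test. The pluripotency genes Nanog (1.07) and Sall4 (0.75) and the maternal and germline gene Dppa3 (0.62) rose. Of 9 cumulus cell markers none reached that level, and their summed level was 0.31 to 0.80 TPM (transcript abundance scaled to a common sum per library) in Mettl3-ASO and 0.09 to 0.43 TPM in ASO-Control, with Has2, Amh, Cyp19a1 and Inhba at 0 in both groups. Of 9 sperm markers, 0 in Mettl3-ASO and 1 in ASO-Control reached it, with sums of 0.57 to 3.28 TPM and 0.58 to 2.32 TPM in those groups and Akap4 and Smcp at 0 in both. Markers of the 2-cell embryo differed by group mean: all 11 measured had at least 1 FPKM in Mettl3-ASO, against 3 in ASO-Control. Their sum was 1129 to 3916 TPM in Mettl3-ASO against 3.72 to 18.84 TPM in ASO-Control. By library, Zscan4b, Zscan4c, Zscan4d and Zscan4f overlapped between groups, and the others measured did not. Zscan4f had 137.47, 124.08, 0.44, 170.49 and 0.28 FPKM in Mettl3-ASO replicates 1 to 5, against at most 1.29 FPKM in ASO-Control. Zscan4a was likewise low in Mettl3-ASO replicates 3 and 5, at 0.41 and 0.32 FPKM. The part of either marker set in the results on synthetases was not tested. In pooled embryos a lower level can come from fewer cells that hold a transcript or from less of it per cell, and these cannot be told apart.

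On the FPKM scale, which is per length and allows genes to be ranked, the scaffolds and a few cytosolic enzymes stood at the top. Aimp1 averaged 243 ± 25.0 FPKM in Mettl3-ASO and 259 ± 38.1 FPKM in ASO-Control, and Aimp2 averaged 172 ± 13.0 FPKM in Mettl3-ASO and 230 ± 14.6 FPKM in ASO-Control (SD, n = 5 each). Rars, the arginine enzyme, was the highest cytosolic synthetase in both groups, at 107.11, 167.97, 140.66, 127.11 and 166.01 FPKM in Mettl3-ASO replicates 1 to 5 and 143.54, 188.74, 193.50, 198.89 and 239.01 FPKM in ASO-Control replicates 1 to 5. In ASO-Control the aspartate enzyme Dars and the asparagine enzyme Nars followed, and Cars and Vars, for cysteine and valine, were the lowest of the compartment in both groups. The median over the 20 cytosolic genes of their mean level was 27.5 FPKM in Mettl3-ASO and 36.1 FPKM in ASO-Control, and over the 17 mitochondrial genes it was 4.91 FPKM in Mettl3-ASO and 4.88 FPKM in ASO-Control.

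**Figure D1:**
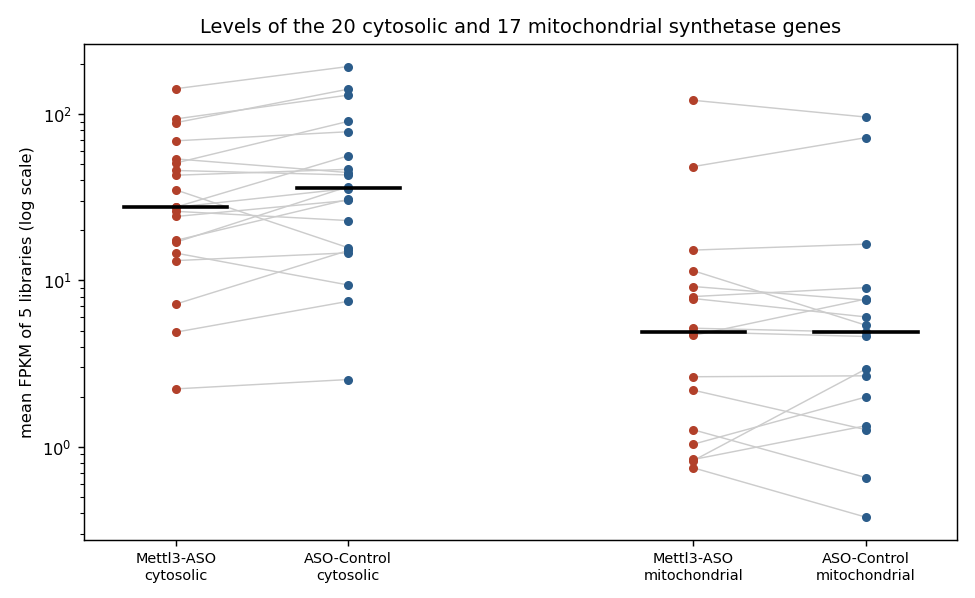
Mean FPKM of each of the 20 cytosolic and 17 mitochondrial synthetase genes on a log axis, with Mettl3-ASO left of ASO-Control in each compartment; each point is a gene averaged over 5 libraries, grey lines join the same gene and black bars are medians (27.5 and 36.1 FPKM cytosolic, 4.91 and 4.88 FPKM mitochondrial). The cytosolic bar stands lower in Mettl3-ASO, and the mitochondrial bars stand level.

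A pair of mitochondrial genes departed from the low level of their compartment. Lars2, the mitochondrial leucine enzyme, was the highest of the 17 in both groups, with 304.25, 117.24, 59.62, 64.08 and 58.68 FPKM in Mettl3-ASO replicates 1 to 5 and 230.63, 115.59, 40.27, 45.73 and 46.79 FPKM in ASO-Control replicates 1 to 5. Its level followed the batch: every untagged library lay above every library of batch 2, in both groups, and the same was seen for Cars2 and Yars2. Rars2, the mitochondrial arginine enzyme, came next in both groups. At the low end, Aars2 and Vars2 had a mean level under 1 FPKM over the 10 libraries and were not tested.

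Most cytosolic synthetase genes were lower in Mettl3-ASO morulae. By test, 11 of the 20 fell and 2 rose (edgeR quasi-likelihood test, Benjamini-Hochberg adjusted over 9522 tested genes, called at an adjusted p under 0.05). Among all tested genes 24.0% fell and 25.4% rose, 49.4% in either direction. The median log2 fold change was −0.40 over the cytosolic genes and 0.0094 over all tested genes, and 15 of the 20 fold changes were negative. Falls of at least 2-fold were called for Sars, Lars and Qars (3 of 20, against 8.67% of all tested genes), and a rise of at least 2-fold for Iars (1 of 20, against 13.4%). By class of catalytic fold, 6 of 10 class I genes fell and 1 rose (median −0.45), and 5 of 10 class II genes fell and 1 rose (median −0.30). The fused glutamate and proline enzyme Eprs, which fell, was counted in class I only. FPKM values of the groups did not overlap for 6 cytosolic genes lower and 2 higher in Mettl3-ASO, against 10.6% and 15.0% of all tested genes in those directions.

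Of the 15 mitochondrial genes tested, 4 fell, 1 rose and 10 did not pass the test, and the median was −0.09 on the log2 scale. In all 33.3% of them were called, against 49.4% of all tested genes, and 4 falls among 15 is close to the 24.0% of all genes that fell. That median took the other sign, at 0.06, among the members with a mean of at least 5 FPKM, and at 0.08 in the untagged libraries alone. With the replicate number as a block, 3 mitochondrial genes rose, since Ears2 (0.79 ± 0.25, SE, adjusted p = 0.0200) and Lars2 (0.31 ± 0.09, adjusted p = 0.0136) joined the call. Whether the cytosolic and mitochondrial sets differ from each other was not tested, as the members were chosen with results known.

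**Figure D2:**
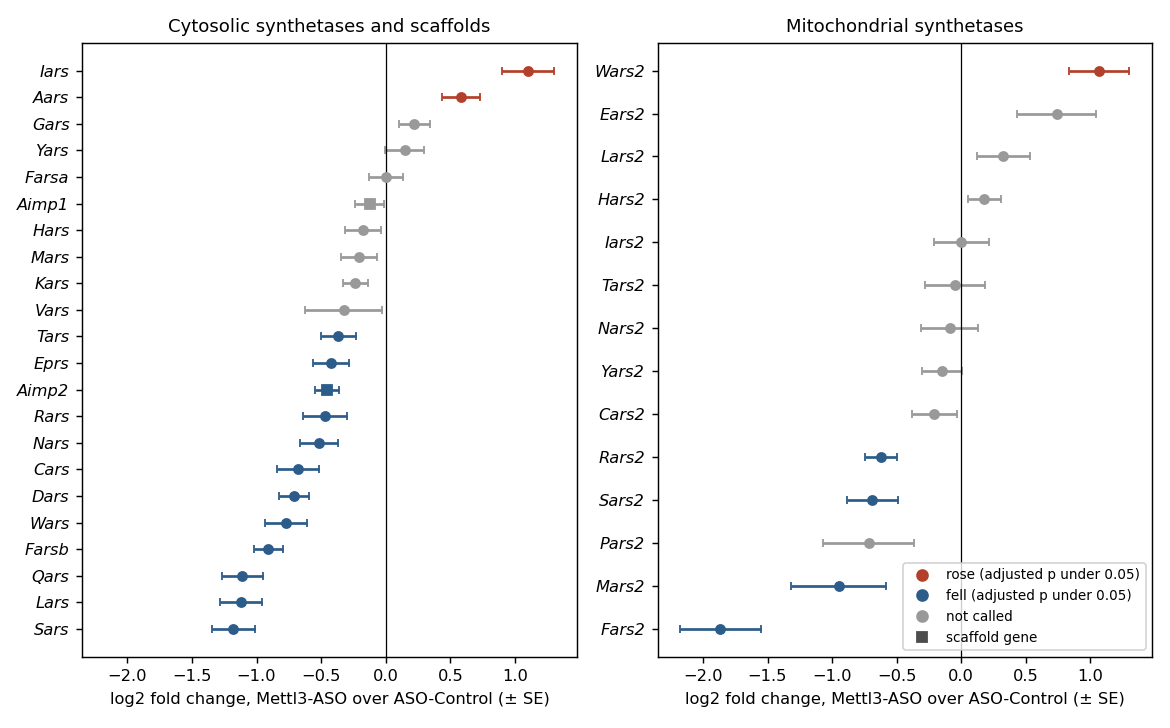
Log2 fold change of Mettl3-ASO over ASO-Control (± SE, edgeR) for the 22 tested cytosolic and scaffold genes and 14 tested mitochondrial genes, coloured by call. Of the cytosolic genes 11 stand in blue left of 0 and Iars and Aars in red right of it, while most of the mitochondrial genes are grey.

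Within the multisynthetase complex, 5 of the 8 enzyme genes fell (Qars, Lars, Dars, Eprs and Rars) and 1 rose (Iars). The median log2 fold change of the 8 was −0.45. Among all tested genes 24.0% fell and 25.4% rose, which applies equally to the enzymes outside the complex. The summed level of the 8 enzymes of the complex was 376 to 453 TPM in Mettl3-ASO and 492 to 626 TPM in ASO-Control, without overlap. Over the cytosolic enzymes outside the complex, 6 of 12 fell and 1 rose (median −0.35 on the log2 scale). Their summed levels overlapped over all libraries, at 411 ± 90.9 TPM in Mettl3-ASO and 507 ± 60.5 TPM in ASO-Control (SD, n = 5 each). Within each batch they did not overlap. Untagged sums were 506 and 511 TPM in Mettl3-ASO against 522 and 593 TPM in ASO-Control. Batch 2 sums were 316 to 366 TPM in Mettl3-ASO against 426 to 512 TPM in ASO-Control.

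Qars (chromosome 9, 108508005 to 108515941, plus strand, GRCm38), the glutamine enzyme, had 39.90, 18.34, 23.20, 28.34 and 28.09 FPKM in Mettl3-ASO replicates 1 to 5, against 68.93, 63.77, 44.67, 50.49 and 52.48 FPKM in ASO-Control replicates 1 to 5. Every Mettl3-ASO library lay under every ASO-Control library. In counts Qars was 2.16-fold lower, a log2 fold change of −1.11 ± 0.16 (SE, edgeR adjusted p = 1.2e-04).

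Lars (chromosome 18, 42202298 to 42262237, minus strand), the leucine enzyme, had 8.34, 6.44, 5.17, 8.41 and 7.67 FPKM in Mettl3-ASO libraries and 14.03, 14.57, 13.38, 15.45 and 18.20 FPKM in ASO-Control libraries. Again the groups did not overlap, and the spread within each was narrow beside the gap between them. Its log2 fold change was −1.12 ± 0.16 (SE, edgeR adjusted p = 1.5e-04), 2.18-fold lower. Leucine is also the amino acid whose mitochondrial enzyme, Lars2, was the highest of its compartment.

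Dars (chromosome 1, 128363707 to 128417416, minus strand) loads aspartate and was among the most abundant members. Levels were 95.62, 67.99, 91.31, 102.30 and 85.84 FPKM in Mettl3-ASO libraries, against 117.39, 117.75, 129.45, 164.59 and 175.54 FPKM in ASO-Control libraries, with no overlap. Dars was 1.64-fold lower in counts, at a log2 fold change of −0.71 ± 0.12 (SE, edgeR adjusted p = 3.3e-04).

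Eprs and Rars fell by less and less firmly. Their log2 fold changes were −0.42 ± 0.14 for Eprs (edgeR adjusted p = 0.0237) and −0.47 ± 0.17 for Rars (edgeR adjusted p = 0.0366), and the FPKM values of both overlapped between groups. The Rars call was lost in 9 of 22 alternative analyses and the Eprs call in 5, among them the omission of single libraries of either group. Kars, which serves cytosol and mitochondria, had a log2 fold change of −0.23 ± 0.10 that missed the threshold (edgeR adjusted p = 0.0561) and passed it with the replicate number as a block (adjusted p = 0.0474). Mars, the methionine enzyme, had one of −0.21 (adjusted p = 0.231).

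Iars, the isoleucine enzyme, rose while the other called enzymes of the complex fell. The gene lies on chromosome 13 at 49682130 to 49734267 on the plus strand. It had 25.10, 31.92, 27.18, 33.99 and 56.80 FPKM in Mettl3-ASO replicates 1 to 5, against 15.28, 15.79, 13.52, 17.41 and 16.55 FPKM in ASO-Control replicates 1 to 5. Every Mettl3-ASO library lay above the controls, and replicate 5 stood above the other Mettl3-ASO libraries. The log2 fold change was 1.10 ± 0.20 (SE, edgeR adjusted p = 7.4e-04), or 2.15-fold higher, and it was 0.87 ± 0.15 without Mettl3-ASO replicate 5 (adjusted p = 6.9e-04). Of the 50-base windows of its annotated exons, 7.15% also occur in Gm4849, so part of its reads may be shared between the genes.

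Among the enzymes outside the complex, the subunits of the phenylalanine enzyme parted. That enzyme is built from alpha subunits (Farsa) and beta subunits (Farsb). Farsb (chromosome 1, 78417958 to 78488897, minus strand) had 65.84, 56.10, 47.79, 42.95 and 40.90 FPKM in Mettl3-ASO libraries, against 96.65, 103.40, 74.55, 83.75 and 92.99 FPKM in ASO-Control libraries, with no overlap. It was 1.88-fold lower, at a log2 fold change of −0.91 ± 0.11 (SE, edgeR adjusted p = 4.2e-05), the smallest p of all members. Farsa had 64.91, 54.68, 39.14, 36.25 and 33.81 FPKM in Mettl3-ASO libraries and 44.74, 49.02, 35.55, 44.98 and 40.78 FPKM in ASO-Control libraries. Those ranges overlapped, and the log2 fold change of Farsa was 0.0021 (edgeR adjusted p = 0.990), with its sign dependent on the scaling. As a ratio of FPKM, chosen for description after its values were seen, Farsb over Farsa was 1.01, 1.03, 1.22, 1.18 and 1.21 in Mettl3-ASO libraries and 2.16, 2.11, 2.10, 1.86 and 2.28 in ASO-Control libraries. The transcripts of the subunits thus stood near parity in Mettl3-ASO and near a 2.10-fold excess of the beta subunit in ASO-Control. Of the annotated exon bases of Farsb, 9.47% overlap Sgpp2 on the opposite strand, and the sources used here do not say whether reads were counted by strand.

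Sars (chromosome 3, 108424864 to 108445259, minus strand), the serine enzyme, which also charges the selenocysteine tRNA with serine, had the largest fall of the tested cytosolic members. It had 23.81, 16.40, 17.32, 17.25 and 9.94 FPKM in Mettl3-ASO libraries, against 34.30, 42.33, 33.02, 36.17 and 37.26 FPKM in ASO-Control libraries. The groups did not overlap, and the lowest value was that of Mettl3-ASO replicate 5. Its log2 fold change was −1.18 ± 0.17 (SE, edgeR adjusted p = 1.1e-04), or 2.27-fold lower.

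The tryptophan enzyme Wars ranged from 11.30 to 21.34 FPKM in Mettl3-ASO and from 27.52 to 33.41 FPKM in ASO-Control, without overlap, and fell by 0.77 ± 0.16 on the log2 scale (edgeR adjusted p = 0.00182). Cars fell by 0.68 ± 0.16 (adjusted p = 0.00408), Nars by 0.52 ± 0.15 (adjusted p = 0.0103) and the threonine enzyme Tars by 0.37 ± 0.14 (adjusted p = 0.0386). The Tars call was lost in 15 of 22 alternative analyses. The alanine enzyme Aars rose, with 18.84, 14.97, 12.07, 12.91 and 14.20 FPKM in Mettl3-ASO libraries, against 11.08, 8.90, 7.05, 11.02 and 8.87 FPKM in ASO-Control libraries, and no overlap. Its log2 fold change was 0.58 ± 0.15 (edgeR adjusted p = 0.00602), with 0.52 in batch 2 alone (adjusted p = 0.0652), and 14.29% of its annotated exon bases are shared with Exosc6 on the same strand. Gars, Hars, Vars and Yars, for glycine, histidine, valine and tyrosine, did not pass the test, with log2 fold changes of 0.22, −0.18, −0.33 and 0.15 and adjusted p from 0.138 to 0.447. Vars depended on 1 library: without Mettl3-ASO replicate 1 its log2 fold change was −0.69 ± 0.25 (edgeR adjusted p = 0.0364).

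**Figure D3:**
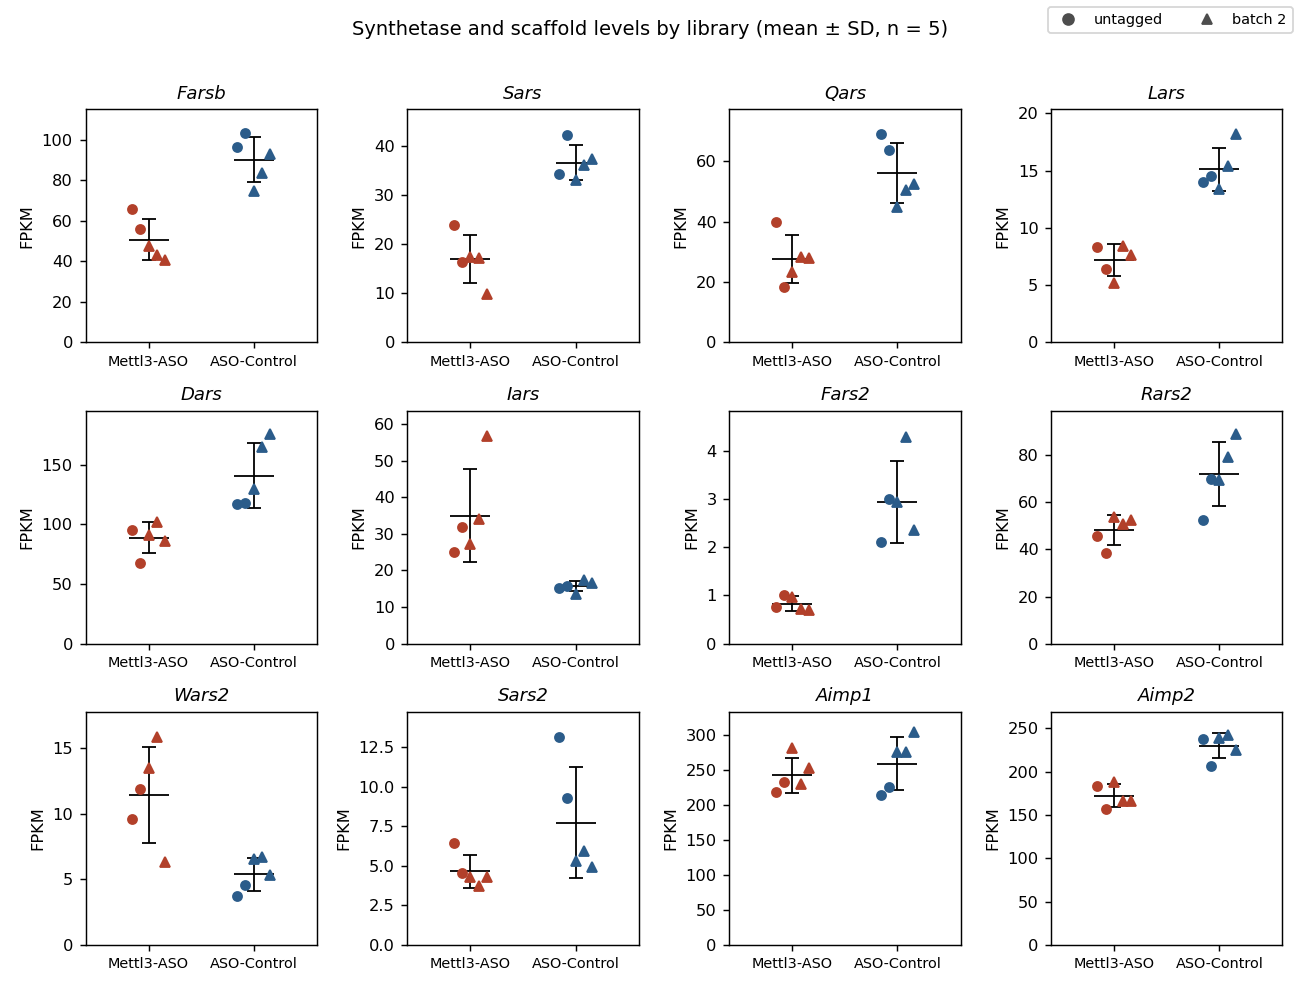
FPKM in each library (linear axis from 0) for 6 cytosolic genes, 4 mitochondrial genes and the scaffolds, with Mettl3-ASO left of ASO-Control; circles are untagged libraries, triangles batch 2, and the bar and whiskers are the mean ± SD of 5 libraries. Farsb, Sars, Qars, Lars, Dars, Fars2 and Aimp2 are lower and Iars is higher in every Mettl3-ASO library, whereas the groups overlap for Rars2, Wars2, Sars2 and Aimp1.

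The scaffold genes differed in their result. Aimp2, which holds the core of the complex together, had 183.63, 157.18, 188.06, 165.92 and 166.48 FPKM in Mettl3-ASO libraries, against 237.24, 206.79, 239.33, 242.06 and 224.85 FPKM in ASO-Control libraries. The groups did not overlap, and Aimp2 fell by 0.45 ± 0.09 on the log2 scale (edgeR adjusted p = 0.00151). Of its annotated exon bases, 29.44% overlap Eif2ak1 on the opposite strand. Aimp1 had 218.28, 233.06, 282.00, 229.80 and 252.83 FPKM in Mettl3-ASO libraries and 213.94, 225.87, 276.67, 276.38 and 304.44 FPKM in ASO-Control libraries, with a log2 fold change of −0.12 ± 0.11 (edgeR adjusted p = 0.384). Eef1e1, the further auxiliary protein of the complex, named here after its values were seen, fell by 0.41 ± 0.09 (edgeR adjusted p = 0.00312) but overlapped between groups, at 698 ± 85.6 FPKM in Mettl3-ASO and 899 ± 126 FPKM in ASO-Control (SD, n = 5 each).

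Among the mitochondrial genes, Fars2 had the largest fold change. Fars2 (chromosome 13, 36117428 to 36537595, plus strand), which loads phenylalanine in mitochondria as a single chain, had 0.75, 1.01, 0.97, 0.71 and 0.70 FPKM in Mettl3-ASO libraries, against 2.11, 3.00, 2.93, 4.29 and 2.36 FPKM in ASO-Control libraries. It was the only 1 of the 15 tested mitochondrial genes whose groups did not overlap. Among all tested genes 25.6% did not overlap, 10.6% with Mettl3-ASO lower, so the mitochondrial count is not above that share. The level is low: the Mettl3-ASO libraries held 17 to 45 counts and the ASO-Control libraries 45 to 229. Fars2 was 3.64-fold lower, at a log2 fold change of −1.86 ± 0.31 (SE, edgeR adjusted p = 3.7e-04), and 10.72% of its annotated exon bases overlap Lyrm4 or Nrn1 on the opposite strand.

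Rars2 had 45.74, 38.51, 53.84, 50.69 and 52.75 FPKM in Mettl3-ASO libraries, against 52.33, 70.12, 69.43, 79.34 and 89.18 FPKM in ASO-Control libraries. The lowest control library, an untagged one, lay inside the Mettl3-ASO range. Rars2 fell by 0.62 ± 0.13 on the log2 scale (edgeR adjusted p = 0.00137). Sars2, for serine, had 6.46, 4.55, 4.31, 3.72 and 4.31 FPKM in Mettl3-ASO libraries, against 13.18, 9.32, 5.30, 5.94 and 4.94 FPKM in ASO-Control libraries. The high control values were the untagged ones, and within each batch every control library exceeded every Mettl3-ASO library. Sars2 fell by 0.69 ± 0.20 (edgeR adjusted p = 0.0112), and in batch 2 alone its log2 fold change was −0.41 (adjusted p = 0.205). Mars2 fell by 0.95 ± 0.37 (adjusted p = 0.0472), a call that was lost in 13 of 21 alternative analyses.

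Wars2 (chromosome 3, 99140107 to 99221230, plus strand), the mitochondrial tryptophan enzyme, was the mitochondrial gene that rose. It had 9.62, 11.91, 13.47, 15.85 and 6.30 FPKM in Mettl3-ASO libraries, against 3.74, 4.53, 6.55, 6.72 and 5.34 FPKM in ASO-Control libraries. Only Mettl3-ASO replicate 5 lay inside the control range. Wars2 was 2.10-fold higher in counts, at a log2 fold change of 1.07 ± 0.23 (SE, edgeR adjusted p = 0.00218).

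Other mitochondrial genes did not pass the test. Ears2 and Pars2, for glutamate and proline, had the largest changes among them, at 0.74 ± 0.30 (edgeR adjusted p = 0.0593) and −0.72 (adjusted p = 0.107). Lars2 and Hars2 had positive log2 fold changes of 0.33 and 0.18, and Cars2, Yars2, Nars2 and Tars2 had negative ones of −0.21, −0.15, −0.09 and −0.05, with adjusted p from 0.211 to 0.868. Iars2 was at 0.00, and 24.18% of its annotated exon bases overlap other genes. Without the filter on low levels, Aars2 stood at 0.79 ± 0.40 on the log2 scale (edgeR adjusted p = 0.126) and Vars2 one of 0.91 ± 0.43 (adjusted p = 0.0981). Aars2 had 2.50, 1.09, 0.83, 1.13 and 0.78 FPKM in Mettl3-ASO libraries and 0.68, 0.94, 0.82, 0.48 and 0.35 FPKM in ASO-Control libraries.

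Setting the cytosolic enzyme against the mitochondrial enzyme for the same amino acid gave 17 pairs for comparison, where Eprs pairs with Ears2 and Pars2 and both Farsa and Farsb pair with Fars2. On the FPKM scale the cytosolic gene was the higher in all 10 libraries in 14 pairs. The clear exceptions were cysteine and leucine: Lars stood at 0.0741 of Lars2 in Mettl3-ASO and at 0.202 of it in ASO-Control, as geometric means. The log2 ratio did not overlap between groups in 4 of the 17 pairs, given as a description with no test, and both pairs with Fars2 are among them. For single genes, FPKM values did not overlap in 25.6% of all tested genes, and no such share was computed for ratios.

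The tryptophan pair moved farthest. Wars over Wars2 was 1.56-fold in Mettl3-ASO and 5.83-fold in ASO-Control, with log2 ratios of 0.64 ± 0.42 in Mettl3-ASO and 2.54 ± 0.46 in ASO-Control (SD, n = 5 each). The cytosolic gene fell and the mitochondrial gene rose. For valine the log2 ratio was 1.39 ± 0.47 in Mettl3-ASO and 2.75 ± 0.23 in ASO-Control. Neither gene of the valine pair was called. Vars had an edgeR adjusted p of 0.384, and Vars2 was too low to be tested, at a mean of 0.563 FPKM over all libraries. Phenylalanine moved the other way, Fars2 having the larger fall. Farsb over Fars2 had a log2 ratio of 5.93 ± 0.31 in Mettl3-ASO and 4.98 ± 0.50 in ASO-Control, and Farsa over the same Fars2 had 5.76 ± 0.41 in Mettl3-ASO and 3.91 ± 0.41 in ASO-Control.

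**Figure D4:**
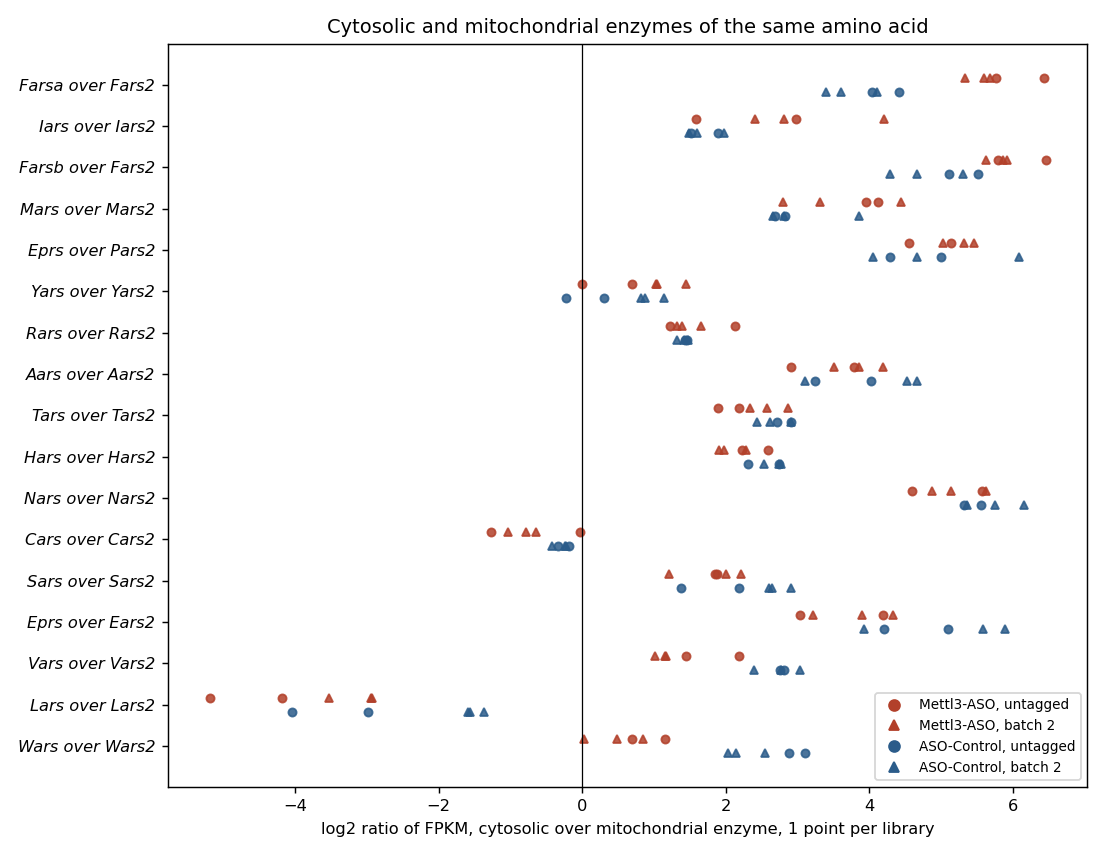
Log2 ratio of FPKM of the cytosolic over the mitochondrial enzyme of the same amino acid, 1 point per library, for 17 pairs, with Mettl3-ASO (red) above ASO-Control (blue) in each row; circles are untagged libraries and triangles batch 2. Points right of 0 mark a higher cytosolic gene; the groups are apart for Wars over Wars2, Vars over Vars2 and both pairs with Fars2.

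Summed over genes, cytosolic synthetase transcripts amounted to 837 ± 110 TPM in Mettl3-ASO and 1070 ± 99.4 TPM in ASO-Control (SD, n = 5 each). The ranges overlapped over all libraries but not within either batch. Untagged sums were 949 and 964 TPM in Mettl3-ASO against 1045 and 1188 TPM in ASO-Control. In batch 2 they were 732 to 779 TPM in Mettl3-ASO against 918 to 1110 TPM in ASO-Control. The mitochondrial sum was 258 ± 132 TPM in Mettl3-ASO and 249 ± 94.7 TPM in ASO-Control, with Lars2 as the largest part of it. Without Lars2 it was 129 ± 17.2 TPM in Mettl3-ASO and 149 ± 15.9 TPM in ASO-Control. The mitochondrial share of all synthetase transcripts, again without Lars2, was 13.4% ± 0.839 in Mettl3-ASO and 12.2% ± 0.500 in ASO-Control, with overlapping ranges.

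Genes that work beside the synthetases were counted in the same way. Of 20 charging partners, 8 fell and 0 rose by edgeR, and their median on the log2 scale was −0.39. Most of the list carry, convert or proofread charged tRNA. It also holds Trnt1, Xpot, the complex protein Eef1e1 given above, and Tarsl2, a synthetase gene whose symbol lies outside the rule. Trnt1 and Eef1e1 are among the falls. In all 40% were called, against 49.4% of all tested genes, of which 24.0% fell and 25.4% rose. At an unadjusted p under 0.05, 12 were lower and 0 higher, beside 2591 lower and 2716 higher among all 9522 genes. DESeq2 and limma also called 0 higher, with 10 and 9 lower, where they called 2460 and 2099 of all genes lower. With the replicate number as a block, 13 partners fell, beside 2616 of all genes. Qrsl1, a subunit of the mitochondrial amidotransferase that makes glutaminyl-tRNA, fell by 1.40 ± 0.19 (edgeR adjusted p = 9.8e-05), at 11.3 ± 2.21 FPKM in Mettl3-ASO and 28.8 ± 5.87 FPKM in ASO-Control (SD, n = 5 each). Gatb, another subunit of that enzyme, named after its values were seen, fell by 1.79 ± 0.38 (edgeR adjusted p = 0.00192), whereas the remaining subunit Gatc stood at 0.15 on the log2 scale (adjusted p = 0.520). The elongation factor genes Eef1b2 and Eef1g, whose products act where charged tRNA is handed to the ribosome, fell by 0.56 ± 0.10 and 0.44 ± 0.08 (adjusted p = 7.1e-04 and 0.00103).

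Of 37 tested genes of tRNA processing and modification, 7 rose, 8 fell and 22 did not pass, with a median of −0.15. The share called was 40.5%, against 49.4% of all tested genes. Rpp38, a subunit of ribonuclease P, which trims tRNA precursors, rose by 1.26 ± 0.12 (edgeR adjusted p = 5.4e-06). Trmu, which thiolates mitochondrial tRNA, rose by 1.57 ± 0.23 (adjusted p = 1.6e-04). Mettl1, the catalytic subunit of the tRNA N7-methylguanosine writer, fell by 1.33 ± 0.15 (adjusted p = 2.5e-05).

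Several cytosolic synthetase genes are known targets of the transcription factor ATF4, which answers amino acid shortage and is known to bind a composite element shared with C/EBP factors. Promoters of 28 of the 39 members were found in RefSeq (GRCm38.p6), each from 250 bases before to 50 bases after the annotated start. They were searched on both strands for that element, written TGATGNAA, where the N may be any base. It occurred in 5 of 12 cytosolic promoters (Aars, Gars, Iars, Tars and Yars), in 0 of 14 mitochondrial promoters, in 0 of 2 scaffold promoters and in 3.97% of all 32851 promoters. Matches are shown in 30-base windows, 1 per gene, on the gene's strand, with the element in capitals, because genes with and without them are then set beside their fold changes.
Aars: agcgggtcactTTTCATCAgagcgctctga
Gars: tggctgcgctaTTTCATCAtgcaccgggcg
Iars: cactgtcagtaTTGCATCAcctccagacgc
Tars: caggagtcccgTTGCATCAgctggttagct
Yars: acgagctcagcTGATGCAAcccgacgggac

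Counted from the first transcribed base as 1, the elements shown begin at 10 in Aars (chr8:111033840-111033869), −30 in Gars (chr6:55037960-55037989), 8 in Iars (chr13:49682126-49682155), −15 in Tars (chr15:11399655-11399684, minus strand) and 4 in Yars (chr4:129189895-129189924). Those shown lie within 30 bases of the start, and all but that of Yars are written as the reverse complement. For contrast, the 250 bases before the start of Sars (chr3:108445260-108445509, minus strand), the cytosolic gene with the largest fall, hold no such element.
Sars: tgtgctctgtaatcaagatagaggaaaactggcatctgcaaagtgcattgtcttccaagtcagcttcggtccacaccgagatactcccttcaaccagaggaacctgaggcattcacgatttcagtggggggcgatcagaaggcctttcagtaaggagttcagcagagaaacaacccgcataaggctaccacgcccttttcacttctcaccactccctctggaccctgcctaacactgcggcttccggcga

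Of the 5 cytosolic genes with the element, 2 rose (Iars and Aars), 1 fell (Tars) and 2 did not pass the test, with log2 fold changes from −0.37 to 1.10 and a median of 0.22. Of the 7 without it in this window (Dars, Eprs, Farsa, Farsb, Kars, Qars and Sars), 0 rose, 5 fell and 2 did not pass, with log2 fold changes from −1.18 to 0.0021 and a median of −0.71. Both cytosolic genes that rose carry the element. The motif was chosen with the fold changes known and the groups are small, so this stands as a description with no test. A further 8 cytosolic genes had no promoter to search, among them Lars, Wars, Cars, Nars and Rars, which fell. Whether ATF4 acts on any of these genes here was not tested.

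**Figure D5:**
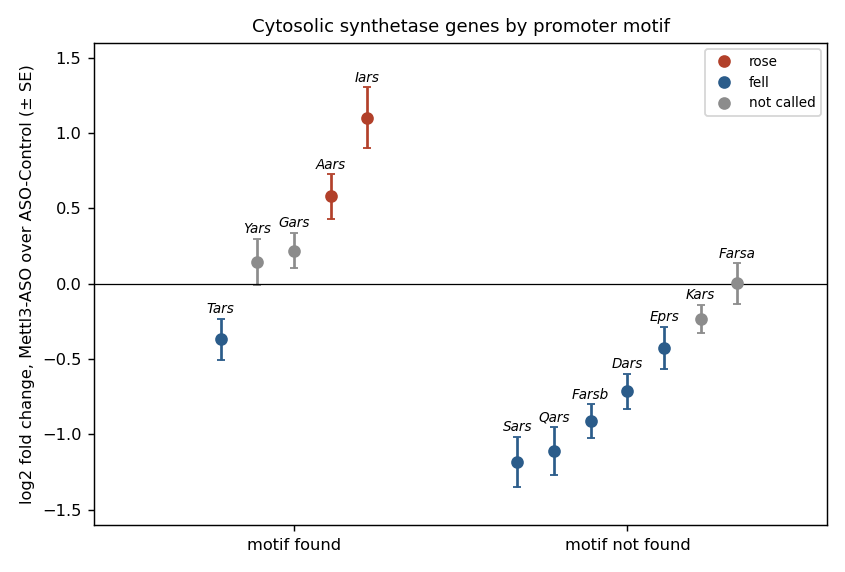
Log2 fold change of Mettl3-ASO over ASO-Control (± SE) of 12 cytosolic synthetase genes, split by whether TGATGNAA was found on either strand from 250 bases before to 50 after the start. Of the 5 with the motif 4 lie above 0, and of the 7 without it 1 does (Farsa, at 0.0021).

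Other ATF4 targets, from a list of 26 that holds no synthetase, were called at the background share. Of 18 tested, 5 rose, 4 fell and 9 did not pass, which is 50% called against 49.4% of all tested genes, with a median log2 fold change of 0.11. The stress gene Nupr1 rose by 2.60 ± 0.38 (edgeR adjusted p = 1.4e-04), at 87.0 ± 38.9 FPKM in Mettl3-ASO and 13.9 ± 8.91 FPKM in ASO-Control (SD, n = 5 each). The serine pathway genes Shmt2 and Psat1 fell by 1.13 ± 0.20 and 0.62 ± 0.11 (adjusted p = 4.6e-04 and 4.7e-04). Asns, which makes asparagine and was chosen after its values were seen, rose by 0.42 ± 0.16 (adjusted p = 0.0458). Atf4 itself averaged 56.8 ± 11.9 FPKM in Mettl3-ASO and 49.3 ± 6.84 FPKM in ASO-Control, with overlapping ranges, and did not pass the test (adjusted p = 0.414).

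The batches, which differ in depth, were compared for the members. In batch 2 alone, 9 cytosolic genes fell and 1 rose (18.6% and 20.5% of all tested genes), their median being −0.44 on the log2 scale, and 2 mitochondrial genes fell and 2 rose. In the untagged libraries alone, 0 members were called by edgeR or by limma, where edgeR called 6.26% of all tested genes (3.79% rose and 2.47% fell). At an unadjusted p under 0.05 by edgeR, 5 cytosolic genes were lower and 2 higher there, and 3 mitochondrial genes were lower and 1 higher, with the same counts by limma. That is 35% of the cytosolic and 26.7% of the mitochondrial genes, beside 26.9% of all tested genes by edgeR, so the mitochondrial share is that of the background. The cytosolic median in the untagged libraries was −0.26. The fold change had the same sign in both batches for 18 of 20 cytosolic genes (90%) and 12 of 15 mitochondrial genes (80%), beside 85.63% of all tested genes. The interaction of group and batch was called for 0 of 9522 genes (0.00%) by edgeR and by limma, with 159 and 170 genes at an unadjusted p under 0.05, none of them members.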

How the data were processed

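Polyadenylated RNA of 10 libraries was sequenced after SMART-Seq v4 PLUS cDNA synthesis, per the labels. Per the submitters' processing notes, STAR 2.7.10, RSEM 1.3.3 and the build mm10 were used; the sources used here state neither annotation release nor strand setting. The authors deposited, for each library, expected counts (estimated reads per gene, which need not be whole), TPM values, FPKM values and abundance-weighted transcript lengths. Reads shared by similar genes were split by estimation in the deposited expected counts, which makes such genes uncertain.

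Groups and replicate numbers came from the titles. Expected counts were rounded and tested with edgeR 4.0.16 (R 4.3.3; quasi-likelihood, TMM, terms for batch and group) over the 9522 genes whose mean FPKM reached 1; the SE is the absolute log2 fold change over the root of F. Levels, ratios and sums used FPKM or TPM as deposited. All members were named, and values per library were given for the smallest p in each compartment. From each other list the 3 genes with the smallest p were named. Eef1e1, Gatb, Gatc, Asns, the tested embryo markers and the Zscan4 genes were added after their values were seen. Members and lists were chosen with earlier results of these data known. The alternatives were RLE and quantile scaling, DESeq2 1.42.0, limma 3.58.1 on log2(FPKM + 1) and log2(FPKM + 0.1), length offsets, no filter, a mean FPKM of at least 5, no batch term, single batches, a replicate block and leaving out each library. The main fit was also run on simulated counts with known changes. It called 43% of the changes of 1 on the log2 scale and 8% of smaller ones, with 3.77% of calls false. The simulation changed a far smaller share of genes than the 49.4% called in the data, which makes the adjusted threshold stricter there. Those percentages therefore do not give the power of the main fit. Members that were not called may still differ between groups. Exon overlap came from GENCODE M21 (GRCm38). The result of 1 mitochondrial gene and 1 promoter match are not reported here.

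Same-numbered libraries of the groups deviated together, with correlations of 0.336, 0.336, 0.213, 0.213 and 0.186 for numbers 1 to 5, where within the untagged batch numbers 1 and 2 give the same value. Values were first centred within each group and batch, which ties these correlations to each other. Between numbers 1 and 2 the value is thereby fixed at −0.336. In batch 2 the highest correlations with another number were −0.0723, −0.0427 and −0.0241 for numbers 3 to 5. Any pairing by number is inferred from these values and is not stated in the labels. All 10 libraries counted as separate: among 8 pairs of 1 group and batch, the lowest chi-square was 24.7 per degree of freedom. Fragments carry no molecular identifiers.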

Additional observations from a re-analysis of the deposited data

Results flagged for a closer look

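In 8 of 78 groups examined (39 genes in each of 2 groups of 5 libraries), 1 library stood far from the other 4. The rule used flags about 1 in 20 when 5 values come from 1 normal distribution. Each group here mixes both batches and the genes share libraries, so that rate is no reference for these flags. Mettl3-ASO replicate 1 was the high library for 5 genes: Lars2 at 304.25 FPKM (others 58.68 to 117.24), Kars at 84.44 (others 62.62 to 68.94), Cars at 8.39 (others 3.70 to 4.66), Vars at 5.29 (others 1.19 to 2.05) and Aars2 at 2.50 (others 0.78 to 1.13). Without it the fall of Cars was 0.78 ± 0.17 on the log2 scale (edgeR adjusted p = 0.00204), and the log2 fold change of Kars was −0.24 ± 0.10 (adjusted p = 0.0599). That of Lars2 was 0.16 ± 0.20 without it (edgeR adjusted p = 0.536). Iars stood at 56.80 FPKM in Mettl3-ASO replicate 5, against 25.10 to 33.99 in the other Mettl3-ASO libraries. In ASO-Control, Hars was high in replicate 2, at 54.72 FPKM (others 42.62 to 45.22), and Mars in replicate 1, at 19.75 FPKM (others 12.45 to 14.01).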

How the results depend on the processing

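Apart from replicate omissions, 376 member results kept direction and call, 34 lost and 9 gained the call, and 18 changed sign; over replicate omissions these were 325, 25, 6 and 14. No called member changed sign. With the replicate block, mitochondrial genes that rose numbered 3 and charging partners that fell 13; besides Kars, Ears2 and Lars2 it changed no member call. DESeq2 and no filter each gave 2 mitochondrial rises; a mean FPKM of at least 5 left 2 mitochondrial falls. In batch 2 alone, 1 cytosolic, 2 mitochondrial, 4 processing and 3 ATF4 target genes rose and 2 mitochondrial genes fell. In the untagged libraries 596 genes were called (361 rose, 235 fell): 0 cytosolic and 0 mitochondrial, 1 charging partner that fell, 2 processing genes that rose and 1 that fell, 1 ATF4 target that rose and 0 that fell; the cytosolic median was −0.26. The ATF4 median was −0.05 under quantile scaling, and the median of all genes 0.18 with no filter.

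Sign changes were in genes near 0. Farsa had −0.0065 (RLE), −0.0074 (DESeq2), −0.0488 (no filter) and −0.1731 (batch 2); −0.0729 to 0.059 without single replicates. Iars2 had −0.0111 (RLE), −0.0951 (quantile), −0.0112 (DESeq2), −0.0059 (log2(FPKM + 0.1)), −0.0494 (no filter), −0.0034 (no batch term), −0.1711 (batch 2) and −0.0538 (block); −0.1798 to 0.1375 without single replicates. Tars2 had 0.0381 and 0.0362 (limma on FPKM), 0.4228 (untagged), and −0.1631 to 0.0973 without single replicates. In the untagged libraries Aimp1 had 0.003, Hars 0.0258 and Nars2 0.0839; Nars2 had −0.1915 to 0.0785 without single replicates. The cause was not tested.

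Leaving out single replicates gave 4194 to 4800 called genes, 8 to 11 cytosolic and 3 to 4 mitochondrial falls, 2 cytosolic and 1 to 3 mitochondrial rises (3 without Mettl3-ASO replicate 2; 2 without ASO-Control replicate 1 or 4), 7 to 11 charging falls, 5 to 8 processing rises and 8 to 9 falls, and 4 ATF4 falls with 3 to 6 rises (3 without Mettl3-ASO replicate 2 or 5 or ASO-Control replicate 3 or 5). Low counts limit Fars2, Mars2, Pars2, Aars2 and Vars2, and few libraries limit the untagged comparison.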
